A study of Musca domestica with 6 samples.

Results

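Trypsins and chymotrypsins are the main protein-digesting enzymes of the fly larval gut, and 81 of the 14227 genes in the housefly (Musca domestica) table were described as one or the other. They are the protein-coding genes whose best protein match was named trypsin or chymotrypsin, with inhibitors left out. By name, 64 were trypsins and 17 were chymotrypsins. RNA was sequenced from whole larvae in instar 2, collected 24 h after injection of double-stranded RNA. In dsMdCht9 larvae (3 libraries) the injected RNA matched the chitinase gene MdCht9, and in dsGFP larvae (3 libraries) it matched GFP, a jellyfish gene used as a control sequence. Both groups were thus injected, and neither was left without double-stranded RNA. The labels used here give no strain, no sex and no number of larvae per library. The question for these genes is whether their RNA differed after injection of RNA against the chitinase.

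Trypsins cut proteins after lysine and arginine, and chymotrypsins cut mainly after large hydrophobic residues. Both are made as inactive precursors, are secreted by midgut cells, and act on food inside the peritrophic matrix, the chitin-containing sleeve that surrounds the gut contents. In Drosophila, several digestive trypsins carry Greek letter names and sit side by side in the genome. Relatives with the same fold also serve in immunity, egg and seminal fluid proteolysis, so a trypsin-like name does not by itself give a digestive role. All 81 genes had the Trypsin domain among their domain annotations and the annotation of serine-type endopeptidase activity. The closest curated protein was itself named a trypsin or chymotrypsin for 54 of them and something else for 27, most often Seminase, a protease of the Drosophila seminal fluid (15 genes).

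Libraries held 12876941 to 15439421 counted reads, and 10644 genes were tested. The libraries numbered 3 stood apart in both groups. On the first principal component of log2 levels, with 49.3% of the variance, dsMdCht9 replicate 3 lay at 48.2 and dsGFP replicate 3 at 40.2, while the other 4 libraries lay between -33.5 and -3.04. For some results that rest on them, values without them are also given. Levels are CPM (reads per 1000000 reads of the library, whose size was scaled by the trimmed mean of M-values), and group values are means ± SD over 3 libraries. Fold changes are log2 values of dsMdCht9 over dsGFP ± SE from edgeR's quasi-likelihood test, and adjusted p-values are over all tested genes. That test reports no SE. The SE given was worked back as the size of the log2 fold change divided by the square root of the test's F statistic. It thus restates the test result and is not a separate measure of error. No annotation in the table names MdCht9, so the level of the targeted gene was not checked. Genes of gut, fat body, cuticle, muscle, nerve and haemocytes were all detected, as the whole-body label implies. In whole bodies, fewer gut cells and less RNA per gut cell cannot be told apart.

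Together the 81 genes made up 0.608%, 0.871% and 0.690% of all reads in dsMdCht9, against 0.717%, 0.780% and 0.864% of reads in dsGFP, each in the order of replicates 1, 2 and 3. As summed levels this was 5371, 9203 and 6548 CPM in dsMdCht9, against 7985, 8142 and 8428 CPM in dsGFP. The groups overlapped, because dsMdCht9 replicate 2 was the highest library of all, while replicates 1 and 3 were the lowest. Trypsins alone summed to 4686, 8283 and 5524 CPM in dsMdCht9 and to 6930, 7184 and 7339 CPM in dsGFP. Chymotrypsins alone summed to 684, 920.0 and 1024 CPM in dsMdCht9 and to 1055, 957 and 1089 CPM in dsGFP. For both classes, the dsGFP libraries lay closer together than the dsMdCht9 libraries.

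**Figure D1:**
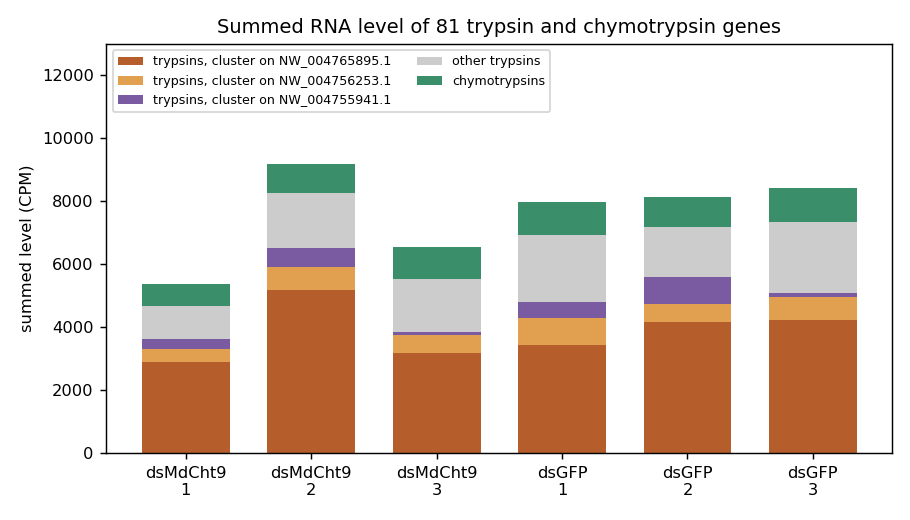
Summed level (CPM, vertical axis from 0) of the 81 genes in each library, dsMdCht9 at left and dsGFP at right, split into 3 trypsin gene clusters, other trypsins and chymotrypsins. The dsMdCht9 libraries run from 5371 to 9203 CPM and enclose the dsGFP libraries, at 7985 to 8428 CPM.

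Levels within the family spanned from single reads in all to 944 CPM. By mean CPM over the 6 libraries, 18 genes lay at 100 CPM or more, 24 between 10 and 100, 20 between 1 and 10, and 19 under 1. The 6 most abundant genes, all trypsins, held 60.6% of the family's summed CPM. CPM is not corrected for gene length, and transcript lengths were not used here. Gene spans were under 2 kb for 63 of the 81 genes, so levels per kilobase of annotated gene span are given for comparisons between genes, and for genes with long introns that scale understates the level.

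The most abundant member was LOC109613440 (trypsin alpha-3-like), at 660, 1607 and 687 CPM in dsMdCht9 and 634, 1001 and 1074 CPM in dsGFP. LOC101888438 (trypsin-like) was at 592, 1095 and 836 CPM in dsMdCht9 and 1135, 1255 and 702 CPM in dsGFP. LOC101888266 (trypsin-like) was at 815, 918 and 935 CPM in dsMdCht9 and 766, 663 and 1066 CPM in dsGFP. For all 3 genes, the groups overlapped. Their log2 fold changes were 0.12 ± 0.40, -0.29 ± 0.31 and 0.10 ± 0.22, in the same order. Averaged over the 6 libraries, these 3 genes were at 1150, 1133 and 968 CPM per kilobase of gene span, ahead of every other member on that scale, and they ranked 154, 156 and 172 among all genes by CPM.

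The remaining abundant trypsins were LOC109613438 (trypsin alpha-3-like), LOC101889025 (trypsin beta-like) and LOC101895875 (trypsin II-P29, closest to lectizyme, a gut protease of tsetse flies). LOC109613438 was at 715 ± 350 CPM in dsMdCht9 and 745 ± 144 CPM in dsGFP (log2 fold change -0.06 ± 0.35). LOC101889025 was at 539 ± 203 CPM in dsMdCht9 and 636 ± 173 CPM in dsGFP (log2 fold change -0.24 ± 0.34). LOC101895875 was at 263, 585 and 554 CPM in dsMdCht9 and 726, 554 and 636 CPM in dsGFP (log2 fold change -0.45 ± 0.31). Each of these 3 differences was within about 1.5 SE of 0, and the groups overlapped in each. LOC101895875 lies inside the span of another gene on the same strand (LOC101896046, a phosphodiesterase), so its reads could be shared with it.

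Chymotrypsins were less abundant. The highest was LOC101896319 (chymotrypsin-like protease CTRL-1, a partial gene model), at 180 ± 31 CPM in dsMdCht9 and 199 ± 38 CPM in dsGFP. LOC101896160 (chymotrypsin-2-like) was at 158 ± 51 CPM in dsMdCht9 and 200 ± 22 CPM in dsGFP. LOC101893206 (chymotrypsin-1) was at 121 ± 50 CPM in dsMdCht9 and 108 ± 36 CPM in dsGFP. The groups overlapped in all 3 genes, and the log2 fold changes were -0.15 ± 0.21, -0.34 ± 0.27 and 0.17 ± 0.35. The name does not fix the role here: the closest curated protein of LOC101896319 was phenoloxidase-activating factor 2, a protein of the melanisation response of beetles, and that of LOC101893206 was coagulation factor XII.

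No member passed the threshold of an adjusted p under 0.05, and neither did any other gene (0 of 10644, or 0%). Of the 81 genes, 63 held enough reads to be tested, and the other 18 (15 trypsins and 3 chymotrypsins) held between 1 and 53 reads over all 6 libraries. Among the 49 tested trypsins, 33 had a log2 fold change below 0 and 16 above, with a median of -0.30. Among the 14 tested chymotrypsins, 12 lay below 0 and 2 above, with a median of -0.31. Over all tested genes, 50.5% lay below 0 and the median was -0.0033. The greater share of low estimates in the list is a description of these libraries and was given no test of its own. The median for trypsins was -0.18 without dsGFP replicate 1. The median for chymotrypsins was -0.12 without dsMdCht9 replicate 1 and also -0.12 without dsGFP replicate 1, and -0.58 without both libraries numbered 3.

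At an unadjusted p under 0.05, 8 tested members were lower in dsMdCht9 (12.7%, against 1.61% of all tested genes) and 0 were higher (against 1.97%). Without dsMdCht9 replicate 1, 5 members were lower and 0 higher at that p, against 1.69% and 1.29% of all tested genes. Without dsMdCht9 replicate 3 the counts were 4 lower and 2 higher (against 1.93% and 1.63%), and without dsGFP replicate 1 they were 2 lower and 0 higher (against 1.02% and 1.1%). Without both libraries numbered 3 there were 12 lower and 3 higher (against 3.37% and 2.18%), and with scaling by library size alone 4 lower and 1 higher (against 0.827% and 2.74%). More members were lower than higher in each of these settings, and the number depended on single libraries. With the replicate number as a block the count was 13 lower and 3 higher, against 4.88% and 3.47% of all tested genes. In 6 members all dsMdCht9 libraries lay below all dsGFP libraries (9.52%, against 3.38% of tested genes), and in 1 they lay above (1.59%, against 4.83%). In the authors' deposited table, 9 of the 81 members were marked as significant and lower (11.1%, against 1.52% of all genes) and 0 as higher (against 1.14%), a mark held by the genes with an unadjusted p under 0.05 and a fold over 1.5 in either direction, whatever their adjusted p. DESeq2 called 1 of the 63 members, LOC101895007 (1.59%, against 0.132% of all tested genes), and with the replicate block it called 4 of 63 (6.35%, against 0.827% of all tested genes).

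**Figure D2:**
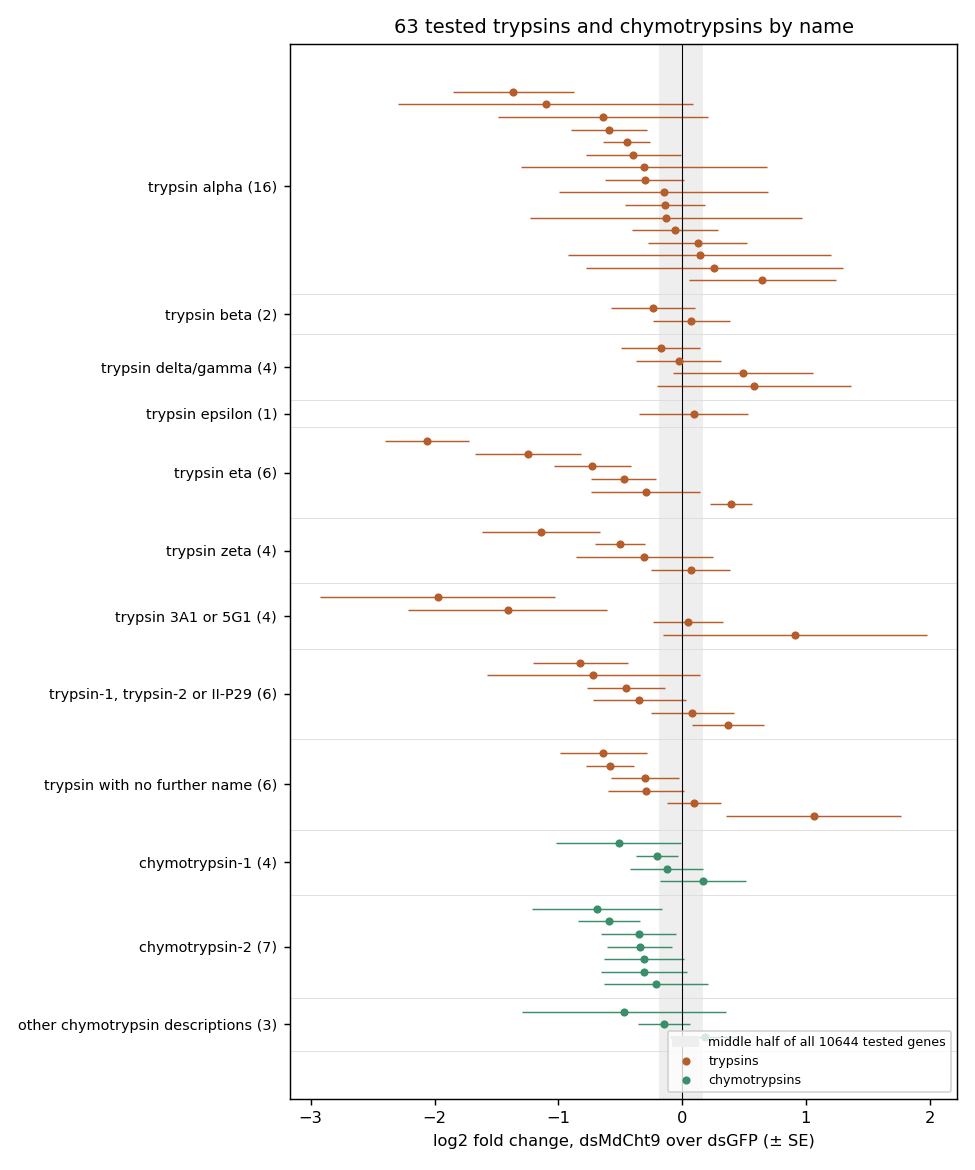
Log2 fold change of dsMdCht9 over dsGFP (horizontal axis, points with SE bars) for the 63 tested members, grouped by name with the number of genes in brackets. Trypsins are brown, chymotrypsins are green, and the grey band holds the middle 50 percent of all tested genes. All 7 chymotrypsin-2 genes lie below 0, and trypsin eta spans from -2.06 to 0.39.

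The member with the smallest p was LOC101895007 (trypsin eta-like), a low-level gene. It had 1.63, 1.79 and 2.58 CPM in dsMdCht9, against 11.5, 8.04 and 5.57 CPM in dsGFP. Every dsMdCht9 library lay below every dsGFP library. The counts behind these levels were 26, 23 and 35 reads in dsMdCht9, against 159, 118 and 88 reads in dsGFP. The log2 fold change was -2.06 ± 0.34 (edgeR adjusted p = 0.675, unadjusted p = 0.000483). DESeq2 gave an adjusted p of 0.000539, and 0.000857 with the replicate block, while edgeR with the block gave 0.338. The authors' deposited table lists it at -2.07 on the log2 scale (adjusted p = 0.000784). The estimate lay between -2.28 and -1.76 with any 1 library left out.

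LOC101894187 (trypsin eta-like), which lies next to it, had 42.5, 31.6 and 25.1 CPM in dsMdCht9, against 133, 52.6 and 50.03 CPM in dsGFP. The groups did not overlap, although dsGFP replicate 1 was far above the other dsGFP libraries. The log2 fold change was -1.25 ± 0.43 (edgeR adjusted p = 0.999), and -0.63 without dsGFP replicate 1. DESeq2 with the replicate block gave an adjusted p of 0.00155, against 0.580 in DESeq2 with group alone and 0.338 in edgeR with the block. Its adjusted p in the authors' deposited table was 0.583.

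LOC101893185 (trypsin-like, closest to lectizyme) had 30.2, 21.1 and 29.1 CPM in dsMdCht9, against 44.8, 33.6 and 42.3 CPM in dsGFP. The groups did not overlap, and the log2 differences within replicate numbers 1, 2 and 3 were close together at -0.57, -0.67 and -0.53. The log2 fold change was -0.58 ± 0.20 (edgeR adjusted p = 0.999, and 0.384 with the replicate block). LOC101901619 (trypsin alpha-4-like) had 94.7, 148 and 92.7 CPM in dsMdCht9, against 315, 110.0 and 437 CPM in dsGFP. It is the most abundant gene with an unadjusted p under 0.05 in the family, and its groups overlapped through dsGFP replicate 2. The log2 fold change was -1.36 ± 0.49 (edgeR adjusted p = 0.999), -0.92 without dsGFP replicate 3, and -0.79 ± 0.51 without both libraries numbered 3.

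A pair of further trypsins differed by less, and their groups did not overlap. LOC101894520 (trypsin zeta-like) had 29.7, 36.7 and 40.2 CPM in dsMdCht9, against 62.7, 44.3 and 43.6 CPM in dsGFP, for a fold change of -0.50 ± 0.20 on the log2 scale. LOC101896688 (trypsin alpha) had 11.1, 11.6 and 13.1 CPM in dsMdCht9, against 16.9, 18.9 and 13.2 CPM in dsGFP, for a fold change of -0.45 ± 0.19 on the log2 scale. In both genes every dsMdCht9 library was the lower, though by a small margin against dsGFP replicate 3. The sixth member with groups that did not overlap, LOC101893102 (chymotrypsin-1-like), differed by only -0.20 ± 0.17. Of the genes marked in the authors' deposited table that are not described elsewhere, LOC101898747 (trypsin 3A1-like) had few reads, with 5, 19 and 3 reads in dsMdCht9 against 17, 82 and 16 reads in dsGFP. It was lower within each number by a similar amount, -1.60, -1.82 and -1.68 on the log2 scale in numbers 1, 2 and 3, values pulled towards 0 by the reads added to each count. Its log2 fold change was -1.98 ± 0.95, and -1.97 ± 0.36 with the replicate block (edgeR adjusted p = 0.338, DESeq2 adjusted p = 0.0957). Leaving out 1 library gave values from -3.24 (without dsMdCht9 replicate 2) to -0.76 (without dsGFP replicate 2).

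Among members with higher estimates in dsMdCht9, LOC101889850 (trypsin eta) was the one with no overlap. It had 61.5, 65.0 and 62.3 CPM in dsMdCht9, against 42.4, 58.4 and 42.8 CPM in dsGFP. The log2 fold change was 0.39 ± 0.17 (edgeR adjusted p = 0.999). It was thus opposite in direction to LOC101895007 and LOC101894187, which share its trypsin eta name but lie on another scaffold. LOC101888088 (trypsin-like), at 2.80 ± 2.30 CPM in dsMdCht9 and 1.33 ± 0.88 CPM in dsGFP, had a log2 fold change of 1.06 ± 0.71. Leaving out dsMdCht9 replicate 3 gave 0.15, and leaving out dsGFP replicate 3 gave 1.71. LOC101888254 (trypsin alpha) was at 18.8 ± 9.01 CPM in dsMdCht9 and 11.98 ± 8.09 CPM in dsGFP, and LOC101895586 (trypsin-1-like) was at 15.5 ± 1.75 CPM in dsMdCht9 and 11.9 ± 4.85 CPM in dsGFP. Their groups overlapped, with log2 fold changes of 0.65 ± 0.60 and 0.37 ± 0.29. Single libraries moved both: leaving out 1 dsGFP library gave 0.28 to 1.33 for LOC101888254 and 0.15 to 0.74 for LOC101895586.

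**Figure D3:**
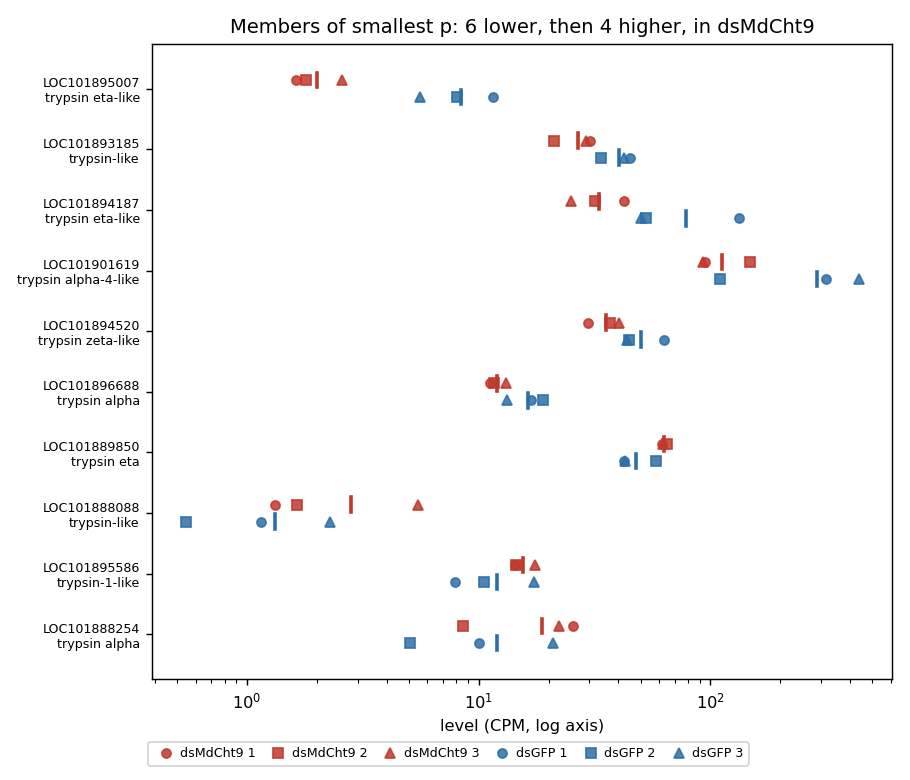
Level (CPM, log axis) in each library of the 6 members of smallest p that were lower in dsMdCht9 and the 4 that were higher, with dsMdCht9 in red above dsGFP in blue and a bar at each group's mean. LOC101895007 is at 1.63 to 2.58 CPM in dsMdCht9 and 5.57 to 11.5 CPM in dsGFP, the widest separation in the plot.

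Many of these genes lie next to each other. With neighbours no more than 20 kb apart, 42 of the 81 members fell into 6 clusters of 3 or more genes on separate scaffolds of the deposited table. The 4 largest, described next, held 12, 10, 7 and 6 members, or 35 genes in all. The assembly is not named in the sources used here, and positions are those of the deposited table.

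The largest cluster spans positions 7174 to 56807 on scaffold NW_004756253.1 and holds 12 trypsins and no other annotated gene. Its names include eta, zeta, beta and delta/gamma, as in the Greek letter trypsins of Drosophila. Of 11 tested members, 9 had a log2 fold change below 0, with a median of -0.50, and 6 were lower in dsMdCht9 within each of the 3 replicate numbers (54.5%, against 15.9% of all tested genes). The count below 0 was between 8 and 10 with any 1 library left out, and 9 without both libraries numbered 3. The median was -0.31 without dsGFP replicate 1. All 3 of the genes in which the groups did not overlap, LOC101895007, LOC101894187 and LOC101894520, are given above, and the first and second of them are neighbours at positions 19022 to 19923 and 21087 to 21978.

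Along this cluster the levels differed far more between genes than between groups. LOC101894840 (trypsin delta/gamma-like) was the most abundant, at 250.0 ± 115 CPM in dsMdCht9 and 282 ± 26 CPM in dsGFP, and differed by -0.17 ± 0.32. LOC101893838 (trypsin beta-like), at the start of the cluster, was at 175 ± 58 CPM in dsMdCht9 and 166 ± 45 CPM in dsGFP, and differed by 0.08 ± 0.31. Both genes, the first along the scaffold, differed by less than their SE, and the eta genes come next.

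LOC101894681 (trypsin eta-like) had 34.2, 26.4 and 19.2 CPM in dsMdCht9, against 59.4, 28.97 and 43.7 CPM in dsGFP, and differed by -0.73 ± 0.31. LOC101895694 (trypsin zeta-like) had 4.63, 14.2 and 4.28 CPM in dsMdCht9, against 18.5, 13.98 and 18.3 CPM in dsGFP, and differed by -1.14 ± 0.48. LOC101894361 (trypsin 3A1-like) had 14.1, 6.78 and 20.1 CPM in dsMdCht9, against 20.5, 9.54 and 78.9 CPM in dsGFP, and differed by -1.41 ± 0.80. In each of these 3 genes 1 library decided part of the value: LOC101895694 overlapped through dsMdCht9 replicate 2, which was slightly above dsGFP replicate 2, and LOC101894361 differed by -0.13 without dsGFP replicate 3. LOC101894681 differed by -0.45 without dsGFP replicate 1. All 3 are marked in the authors' deposited table. LOC101894011 (trypsin eta-like) differed by -0.30 ± 0.44 and LOC101895344 (trypsin zeta-like) by -0.31 ± 0.56. LOC101895171 (trypsin 5G1-like), with 2 to 58 reads per library, differed by 0.91 ± 1.07. LOC101895869 (trypsin-like), the last gene of the cluster, had 4 reads in all and was not tested.

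The cluster of 10 trypsins at positions 158 to 42456 on scaffold NW_004765895.1 holds the 4 most abundant genes of the family, LOC109613440, LOC101888438, LOC101888266 and LOC109613438. It summed to 2898, 5197 and 3196 CPM in dsMdCht9, against 3432, 4177 and 4223 CPM in dsGFP, more than any other cluster. The groups overlapped, and dsMdCht9 replicate 2 was the highest library. Of 9 tested members, 6 lay below 0, with a median of -0.15, and without both libraries numbered 3 the count was 3 of 9 and the median 0.23. No member had a p under 0.05 and in none were the groups apart. The annotated span also holds 2 uncharacterised protein-coding genes.

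The other members of this cluster were at lower levels. LOC101889434 (trypsin alpha-3-like) was at 299 ± 120 CPM in dsMdCht9 and 393 ± 163 CPM in dsGFP, and differed by -0.40 ± 0.38. LOC101888723 (trypsin alpha-like) was at 28.4, 12.5 and 26.8 CPM in dsMdCht9 and 5.62, 10.9 and 58.4 CPM in dsGFP. It differed by -0.15 ± 0.85, and its sign turned without dsGFP replicate 3, at 1.45. LOC101889085 and LOC101889259 (trypsin alpha-3-like and alpha-4-like) differed by -0.59 ± 0.30 and -0.30 ± 0.32, and LOC101887916 (trypsin-like), at the start of the scaffold, had 1 read in all. LOC101889434, LOC109613438 and LOC109613440 had the same best protein match, so reads may be shared between them, and their values are uncertain gene by gene.

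The 7-gene cluster at positions 425481 to 479346 on scaffold NW_004764644.1 holds chymotrypsins and no trypsin, and the description of 6 of them is chymotrypsin-2. All 7 tested members lay below 0, between -0.69 and -0.31, with a median of -0.35, and in none were the groups apart. The summed level was 301, 428 and 434 CPM in dsMdCht9, against 615, 509 and 364 CPM in dsGFP. Thus dsMdCht9 was lower than dsGFP in replicates numbered 1 and 2 and higher in replicates numbered 3. The mean log2 difference of the 7 genes within numbers 1, 2 and 3 was -1.19, -0.24 and 0.21. Without both libraries numbered 3 the median was -0.64, and without dsGFP replicate 1 it was -0.074, with 6 of 7 genes below 0.

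The member of this cluster with the smallest p was LOC101895824 (chymotrypsin-2-like), at 29.7, 24.9 and 20.1 CPM in dsMdCht9, against 47.2, 38.9 and 26.4 CPM in dsGFP. Its groups overlapped only between dsMdCht9 replicate 1 and dsGFP replicate 3, and it was lower within each number. The log2 fold change was -0.59 ± 0.25 (edgeR adjusted p = 0.999, and 0.411 with the replicate block). LOC105261555 (chymotrypsin-2-like, a partial model) was at 101 ± 27 CPM in dsMdCht9 and 128 ± 43 CPM in dsGFP, and differed by -0.35 ± 0.30. LOC101896160 is annotated over 28009 bases and contains LOC101896001 and LOC101897563 on its own strand, so their reads cannot be cleanly separated.

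**Figure D4:**
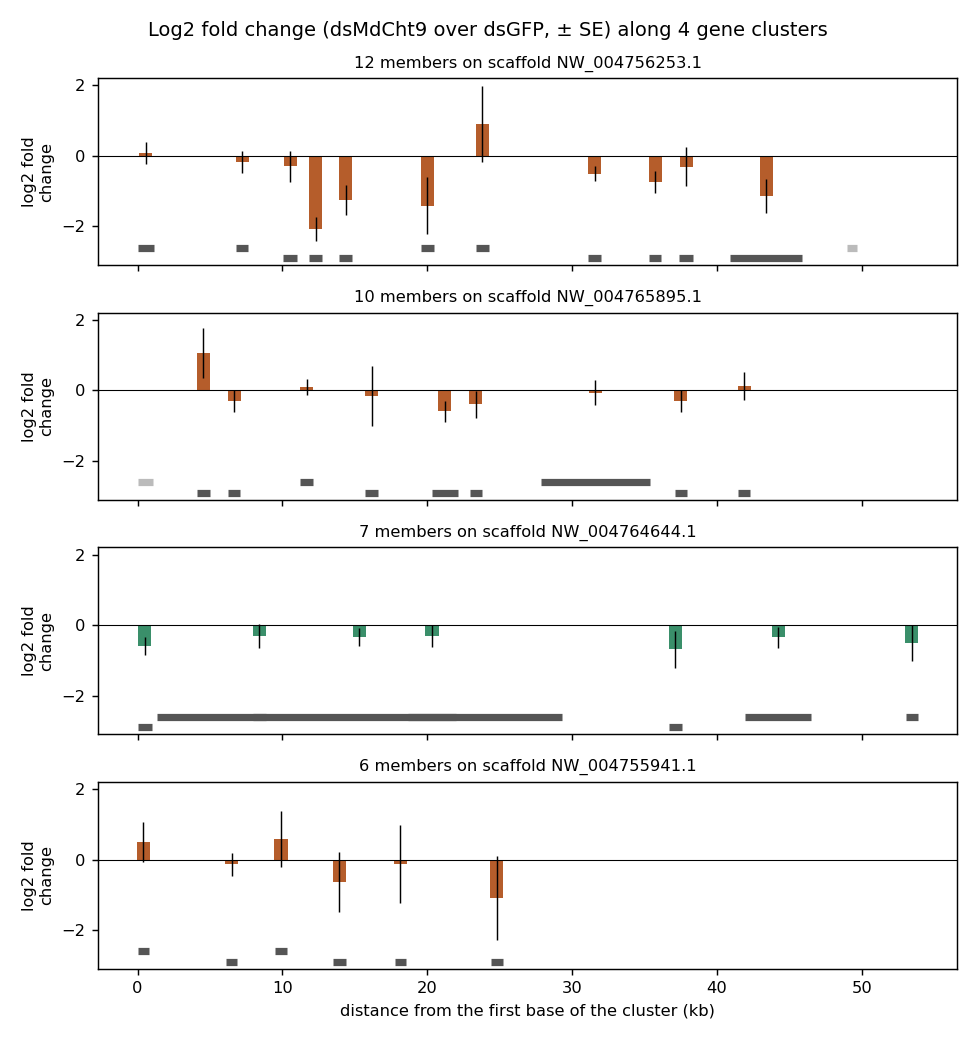
Log2 fold change of dsMdCht9 over dsGFP (bars, with SE lines) along 4 gene clusters, by distance from the first base of each cluster in kb. Brown bars are trypsins, green bars chymotrypsins, and the strips below show gene spans on the plus (upper) and minus (lower) strand, in light grey where a gene was not tested. In the 12-gene cluster 9 bars point down, in the 10-gene cluster 6, in the chymotrypsin cluster all 7 and in the 6-gene cluster 4.

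The cluster of 6 trypsins at positions 16409 to 41626 on scaffold NW_004755941.1 behaved unlike the others. For all 6 genes, both libraries numbered 3 lay below the other 4 libraries, which was so for 16.6% of all tested genes. The summed level was 318, 604 and 74.4 CPM in dsMdCht9, against 525, 850.3 and 135 CPM in dsGFP. Low levels in replicates numbered 3 thus occurred after both injections. The set was noticed after its values were seen and is given as a description.

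Its most abundant gene, LOC101897078 (trypsin alpha-3-like), had 250.5, 446 and 62.3 CPM in dsMdCht9, against 417, 666 and 99.4 CPM in dsGFP. Within every number the dsMdCht9 library was the lower, by -0.74, -0.58 and -0.67 on the log2 scale in numbers 1, 2 and 3. Between groups the log2 fold change was -0.64 ± 0.85, and with the replicate block it was -0.66 ± 0.12 (edgeR adjusted p = 0.368, DESeq2 adjusted p = 0.0195). LOC101898289 (trypsin alpha-3-like) had 18.2, 53.8 and 1.11 CPM in dsMdCht9, against 56.5, 88.8 and 11.8 CPM in dsGFP. It too was lower within each number, by -1.62, -0.72 and -3.27, with a log2 fold change of -1.103 ± 1.19 and, with the block, -1.67 ± 0.47 (edgeR adjusted p = 0.533, DESeq2 adjusted p = 0.00329). Without both libraries numbered 3, and with no block, LOC101897078 differed by -0.63 ± 0.37 and LOC101898289 by -1.005 ± 0.53. LOC101897257 (trypsin alpha-3-like) had 24.7, 80.3 and 3.24 CPM in dsMdCht9, against 33.7, 74.9 and 9.99 CPM in dsGFP, and its direction differed between numbers. The remaining 3 genes had log2 fold changes of -0.14 ± 0.32 (LOC109611701), 0.49 ± 0.56 (LOC101897945) and 0.58 ± 0.79 (LOC109611702).

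**Figure D5:**
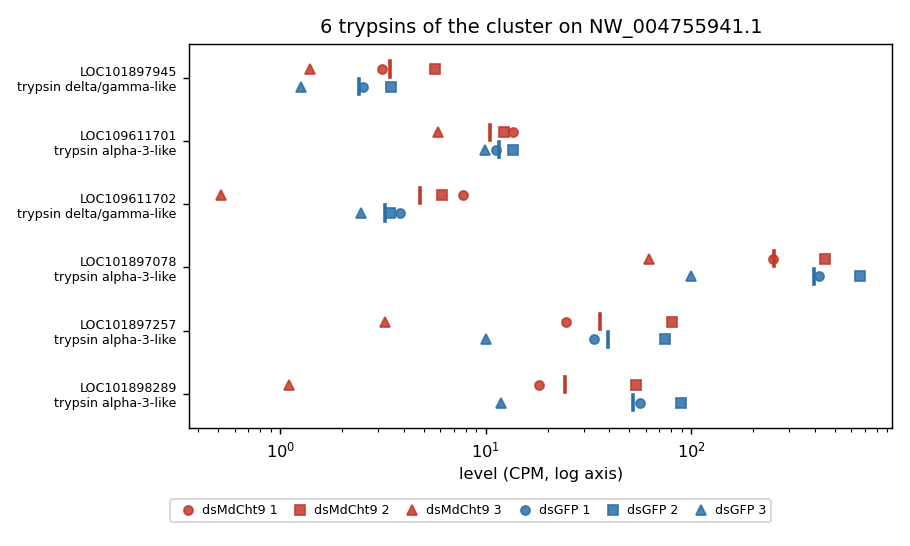
Level (CPM, log axis) in each library of the 6 trypsins on scaffold NW_004755941.1, dsMdCht9 in red above dsGFP in blue, with circles, squares and triangles for replicates 1, 2 and 3 and a bar at each mean. Both triangles of every gene lie to the left of its other 4 points; for LOC101897078 they are at 62.3 and 99.4 CPM against 250.5 to 666 CPM.

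Most genes of that cluster had Seminase as their closest curated protein, and 5 other tested members on other scaffolds had that match too. Both libraries numbered 3 were lowest in 2 of these 5, LOC101899379 and LOC101893780. LOC101892918, LOC101898747 and LOC101892618 did not meet that rule. Their libraries numbered 3 averaged -2.87, -1.27 and 0.25 against the other 4 on the log2 scale. For LOC101892918 this rests on dsMdCht9 replicate 3, since dsGFP replicate 3, at 3.92 CPM, lay between the other dsGFP libraries. In LOC101898747 replicates numbered 1 were nearly as low as those numbered 3. They were at 0.313 and 0.221 CPM in dsMdCht9, and at 1.23 and 1.01 CPM in dsGFP. LOC101899379 (trypsin alpha-3-like, on another scaffold) had 24.3, 69.9 and 1.33 CPM in dsMdCht9, against 31.4, 25.8 and 22.5 CPM in dsGFP. LOC101893780 (trypsin alpha-3-like) had 38, 48 and 0 reads in dsMdCht9, against 45, 37 and 29 reads in dsGFP, and LOC101892918 (trypsin alpha-3-like) had 108, 89 and 0 reads in dsMdCht9, against 72, 49 and 62 reads in dsGFP. For both genes dsMdCht9 replicate 3 was the one library with no read, and a count of 0 still allows an expected count of up to about 3 reads. LOC101892918 is not among the 2 genes with both libraries numbered 3 lowest, since its dsGFP replicate 3 was not the lowest of its group. LOC101901761 (trypsin-2-like), whose closest protein is Trypsin-2, also had both libraries numbered 3 lowest, at 33.2, 43.4 and 3.83 CPM in dsMdCht9 and 49.0, 67.2 and 15.9 CPM in dsGFP. The family as a whole was closer to the background. Over the 63 tested members both libraries numbered 3 were lowest in 14 (22.2%) and highest in 8 (12.7%, against 18% of all tested genes). In the 12-gene cluster these counts were 1 and 1 of 11 tested genes. LOC101897945 and LOC109611702 had the same best protein match with similar scores, so their reads may be shared.

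By name, the trypsin eta genes had the lowest median among names with 5 or more tested genes, at -0.60, with 5 of 6 below 0. Of these, LOC101894011, LOC101895007, LOC101894187 and LOC101894681 lie in the largest cluster, so this name and that cluster overlap. The eta genes outside it, LOC101894037 and LOC101889850, were at -0.47 and 0.39. Trypsin alpha was the largest name with 16 tested genes, of which 12 lay below 0, with a median of -0.23. Chymotrypsin-2 had 7 of 7 below 0, with a median of -0.34, and chymotrypsin-1 had 3 of 4, with a median of -0.16. Trypsin delta/gamma had 2 of 4 below 0. Trypsins named 3A1 or 5G1 also had 2 of 4 below 0, with a median of -0.68, lower than that of the eta genes. The 3 lectizyme matches, LOC101895875, LOC101893185 and LOC101894373, all lay below 0, at -0.45, -0.58 and -0.30. No test compared the names with each other.

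A further cluster on scaffold NW_004765156.1 joined LOC101893206 (chymotrypsin-1) with trypsins named eta, epsilon and delta/gamma, all on 1 strand. Its eta gene, LOC101894037, had 16.8, 15.1 and 27.7 CPM in dsMdCht9, against 27.8, 23.7 and 31.4 CPM in dsGFP. It was lower within each number, with a log2 fold change of -0.47 ± 0.26. The other 3 genes lay between -0.03 and 0.17. A cluster of 3 trypsin-1-like genes on scaffold NW_004764108.1 had 1 tested gene, LOC101895586, while its other members had 1 and 8 reads in all.

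Lists of other proteases, protease inhibitors and peritrophins showed a like share of low estimates. These lists were drawn by name alone, which does not give a digestive role. The share was not particular to them, since cuticle, muscle and fat body genes, given below, had 81.8%, 84.6% and 91.7% below 0. Of 47 tested serine proteases with other names 34 lay below 0 (median -0.17), of 27 carboxypeptidases 19 (median -0.13), of 30 aminopeptidases 21 (median -0.14) and of 4 cathepsins 4 (median -0.30). Carboxypeptidases and aminopeptidases remove single residues from the peptides that trypsins leave. Of 24 protease inhibitors, the proteins that block trypsin-type enzymes, 19 lay below 0 (median -0.21), and of 16 peritrophins, proteins of the peritrophic matrix, 12 did (median -0.18). Of these lists, at an unadjusted p under 0.05, 2, 2, 1, 0, 3 and 2 genes were lower, and 0 were higher, in the same order, where 1.61% of all tested genes were lower and 1.97% higher. No gene of any list passed the adjusted threshold.

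Genes that mark tissues also varied between libraries. Midgut genes (amylases, maltases, peritrophins and proton pump subunits, 46 of 55 tested) lay below 0 in 33 of 46, with a median of -0.096. The parts of this list differed. Proton pump subunits lay below 0 in 17 of 20, peritrophins in 12 of 16 and amylases in 3 of 4. Maltases went the other way, with 1 of 6 below 0 and a median of 0.25. The midgut genes together summed to 15386, 20823 and 12996 CPM in dsMdCht9, against 17846, 18307 and 13930 CPM in dsGFP. As for the summed trypsins, dsMdCht9 replicate 2 was the highest library. Unlike the summed trypsins, the lowest library was dsMdCht9 replicate 3 and not dsMdCht9 replicate 1. Fat body genes (arylphorins, larval serum proteins and apolipophorin, 12 of 13 tested) lay below 0 in 11 of 12, with a median of -0.32, and summed to 87050, 151029 and 127332 CPM in dsMdCht9, against 154414, 131342 and 119511 CPM in dsGFP. For the fat body genes dsMdCht9 replicate 1 was the lowest library, as for the summed trypsins, but the highest was dsGFP replicate 1. Cuticle protein genes, of the epidermis, lay below 0 in 45 of 55 tested (median -0.44), and muscle genes in 11 of 13 (median -0.28). Neuron genes lay below 0 in 3 of 8 (median 0.045) and haemocyte genes in 5 of 9 (median -0.051). No gene matched hexamerin, chitin synthase, hemolectin or nimrod by name. The part of tissue makeup in the trypsin values was not tested.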

How the data were processed

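The authors' deposited table gave raw read counts per gene for 6 libraries, per the file headers, beside a mean normalized signal, the fold of dsMdCht9 over dsGFP as a linear ratio and on the log2 scale, and p-values with and without adjustment. The submitters' processing notes name HISAT2 2.1.0, StringTie 1.3.2d and HTSeq 0.6.0 with no roles. The sources used here do not give the genome build, strand use or treatment of multi-mapping reads, so near-identical trypsins are uncertain gene by gene. Each library was made from 3 µg of RNA, per the labels. Libraries were grouped by title. The labels do not say that replicates came from separate pools, so every p-value reflects only how far these samples differ, and that spread may be technical.

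Counts were analysed in R 4.3.3 with edgeR 4.0.16 (filterByExpr, TMM scaling, robust quasi-likelihood F-test, group as the only term, two-sided, Benjamini-Hochberg adjustment over 10644 genes, threshold 0.05), and the test was checked on simulated counts. The simulated counts had the same spread setting for every gene and no effect of replicate number. The check therefore does not cover the differences between numbers seen in these libraries. DESeq2 1.42.0, limma-voom (limma 3.58.1), other scalings and filters, left-out libraries and a replicate block were alternatives. Clusters joined members no more than 20 kb apart, in groups of 3 or more. Named genes were the 6 trypsins and 4 chymotrypsins highest in CPM, the members of smallest p (6 lower, 4 higher), those of the 2 largest clusters and those marked by the authors; other genes were named after their values were seen. The members and lists were chosen with earlier results of these data known. Same-numbered libraries deviated together from their group means, with correlations across genes of 0.24, 0.39 and 0.65 for numbers 1, 2 and 3. The replicate block, an alternative, treated the numbers as pairs, while the main test did not. This pairing comes from the data and not from the labels, and dsMdCht9 replicate 2 correlated with dsGFP replicate 1 at 0.32. Of the 81 symbols, 76 were found in a newer RefSeq gene table (Musca_domestica.polishedcontigs.V.1.1); no sequences were used here.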

Additional observations from a re-analysis of the deposited data

How the results depend on the processing

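In edgeR 0 genes and 0 members were called under the main settings, each scaling and filter, the replicate block and every left-out library, and limma-voom called 0. Genes with an unadjusted p under 0.05 numbered 381 in the main test, 400 in DESeq2, 379 in limma-voom and 888 in edgeR with the replicate block. DESeq2 called 14 genes and 1 member. With the replicate block DESeq2 called 88 genes and 4 members (LOC101895007, LOC101894187, LOC101897078 and LOC101898289), and the block changed the call of no other member. The median log2 fold change of trypsins was -0.30 and lay between -0.43 and -0.18 with 1 library left out, and that of chymotrypsins was -0.31 and lay between -0.44 and -0.12, and at -0.58 without both libraries numbered 3. Trypsins below 0 numbered 30 to 37, and chymotrypsins below 0 numbered 9 to 12, with 1 library left out. Scaling by library size alone shifted the median of all genes to 0.12, with 32.4% of genes below 0, and the medians of trypsins and chymotrypsins to -0.17 and -0.17, or -0.28 and -0.29 relative to that shift.

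Estimates near 0 changed sign. LOC101888723 was at 0.45 in limma-voom, 0.38 with the block in edgeR, 0.43 with the block in DESeq2 and 1.32 without both libraries numbered 3, against -0.15. LOC109613438 was at 0.018 by library size alone. Without both libraries numbered 3, LOC109613438 was at 0.13, LOC101893838 at -0.14, LOC101894840 at 0.0056 and LOC101889434 at 0.23, and the medians of the clusters on NW_004765895.1 and NW_004755941.1 were at 0.23 and 0.012.

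With 1 library left out, the values that changed sign ranged from -0.54 to 0.15 for LOC109613438, -0.42 to 0.34 for LOC109613440, -0.47 to 0.032 for LOC101889025, -0.60 to 0.072 for LOC101894840, -0.22 to 0.48 for LOC101893206, -0.12 to 0.32 for LOC101893838, -0.66 to 0.065 for LOC101895344, -0.62 to 1.45 for LOC101888723, -0.71 to 0.079 for LOC101894011, -0.21 to 1.94 for LOC101895171, -0.043 to 0.32 for LOC101888266 and -0.29 to 0.013 for LOC101896319. The median of the cluster on NW_004755941.1 ranged from -0.79 to 0.31. Cluster medians were added as a result after the data were seen. The causes were not tested. Of 506 alternative values for named genes, 475 kept direction and side of the threshold, 28 changed sign and 3 passed the threshold. Joining members at 10 kb gave 5 clusters with 38 members, and at 50 kb 6 clusters with 42. The spread between 3 libraries per group limits what can be called, and genes with few reads most of all.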
